A study of Homo sapiens with 12 samples.

Results

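The genes described here are 50 genes of the lysosome and of autophagy, taken by their symbols from a set list that includes GLB1, the gene of lysosomal β-galactosidase. All 50 were among the 35337 rows of the expression table, and 48 of them were among the 13847 genes whose normalised read count averaged 5 or more. They were compared between 6 senescent and 6 non-senescent samples of EndoC-βH3, a human beta-like cell line made from fetal pancreas and immortalised with hTERT and the SV40 large T antigen. All cells carry CreER, a recombinase that is switched on by 4-hydroxytamoxifen (4-OHT) and then cuts out the immortalising genes. Senescent cells had been treated with 4-OHT for 3 weeks, and non-senescent cells are labelled as control. The samples hold no cells that received 4-OHT without excision, so the effects of the drug and of the excision cannot be told apart. The genotype of all samples is given as WT, and the cells are 1 line. The letter in each sample name is A, with 2 samples per group, or B, with 4 per group. The labels do not call these letters batches, and they were read here as the 2 batches that the methods mention. Nothing in the labels says that samples of a group came from separate cultures, so p-values measure the spread between these samples, which may be technical.

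Lysosomes break down macromolecules with acid hydrolases, and autophagy delivers cytoplasm and organelles to them in autophagosomes. Soluble hydrolases are glycosidases, sulfatases, proteases and lipases, helped by activator proteins and enclosed by a membrane rich in LAMP proteins. The MiT/TFE transcription factors TFEB, TFE3 and MITF bind an E-box core, CACGTG, in the promoters of many lysosomal genes. Autophagosomes form through the ULK1 kinase, the BECN1 lipid kinase complex and the WIPI proteins, and ATG5, ATG7 and ATG16L1 couple ATG8 proteins to the membrane. Beta-galactosidase encoded by GLB1 is the enzyme behind senescence-associated β-galactosidase staining, in which senescent cells turn blue at a pH above the optimum of the enzyme.

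Promoter sequences are given for GLB1, because its enzyme is the stained marker, and for GAA, the member called higher whose promoter held the E-box with its flanks, TCACGTGA. Both run 5′ to 3′ over the 250 bases before the GENCODE v44 canonical start on GRCh38, in lower case, and capitals mark TCACGTGA. The GLB1 window lies at chr3:33097147-33097396 on the minus strand and the GAA window at chr17:80101331-80101580 on the plus strand.
GLB1: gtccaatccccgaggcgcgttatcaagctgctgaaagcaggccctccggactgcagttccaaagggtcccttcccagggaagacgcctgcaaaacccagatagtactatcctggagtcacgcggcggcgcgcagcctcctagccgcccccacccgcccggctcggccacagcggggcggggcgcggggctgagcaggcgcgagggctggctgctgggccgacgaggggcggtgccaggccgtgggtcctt
GAA: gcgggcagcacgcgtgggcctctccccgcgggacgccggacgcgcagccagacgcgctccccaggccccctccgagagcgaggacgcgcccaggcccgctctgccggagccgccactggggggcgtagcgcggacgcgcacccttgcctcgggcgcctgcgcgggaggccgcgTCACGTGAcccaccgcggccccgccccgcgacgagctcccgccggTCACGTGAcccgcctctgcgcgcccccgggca
The GLB1 window held neither motif, and the GAA window held TCACGTGA at 2 places. The RefSeq start of GLB1, used in the counts that follow, lies 324 bases from the canonical start. Its window is therefore another stretch, which also held neither motif. A missing match says only that these letters are not in the window searched.

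In the RefSeq promoter table (GRCh38, 250 bases before to 50 bases after each start), 43 of the 50 genes were found. HEXA, CTSB, LAMP2, PSAP, ASAH1, SGSH and MAP1LC3A were not matched. CACGTG, which reads the same on both strands, lay in 9 of the 43 promoters (20.9%), beside 7.44% of all 27305 promoters and 10.1% of the 10388 promoters of tested genes. TCACGTGA, which contains CACGTG, lay in 5 of 43 (11.6%), beside 1.04% and 1.97%. The 5 genes were GAA, CTSA, LAMP1, CLN3 and MCOLN1, and GAA was the 1 called higher in senescent cells. It was 1 of 6 matched promoters of genes called higher, against 0 of 3 called lower and 4 of 34 not called. All of the matches were at lysosomal genes, with 0 of 12 autophagy genes holding either motif. The match nearest the start in each of the other 4 genes, chosen after their values were seen, is given with 10 bases on either side to show that their flanks differ. They lie at chr20:45891299-45891326, chr13:113297227-113297254, chr16:28492059-28492086 (minus strand) and chr19:7522599-7522626, in this order.
CTSA: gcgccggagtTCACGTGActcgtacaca
LAMP1: gcggcgcagcTCACGTGAcaagcgctgc
CLN3: gcgggtgctgTCACGTGAtccgacaaac
MCOLN1: ggctaccgggTCACGTGAccgaggcaca
The capitals again mark TCACGTGA. The letters are a description of sequence and do not show that a factor binds there.

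The values are normalised read counts from CEL-seq2, which reads the 3′ end of each poly(A) transcript. Libraries held 8873569 to 17106776 reads in batch A and 4672924 to 7063264 in batch B. In bulk samples, fewer cells with a transcript and less transcript per cell cannot be told apart. All 10 beta cell markers passed the filter, and their summed level was 39790 to 54740 in non-senescent and 81690 to 213100 in senescent samples. INS held the most reads of the 10. INS, IAPP and PDX1 were called higher (log2 differences of 2.23, 1.87 and 0.59), PCSK1 was called lower (-1.06), and the others were not called. Of 8 macrophage markers, which matter here because macrophages are rich in lysosomes, CSF1R had no reads and the summed level was 25.6 to 73.9 in non-senescent and 21.8 to 51.9 in senescent samples. Summed fibroblast markers ranged over 17.8 to 126 and 13.9 to 54.9, with PDGFRB without reads. Ductal markers ranged over 242 to 379 in non-senescent and 78.1 to 162 in senescent samples, mostly KRT19, and acinar markers over 33.9 to 58.4 and 144 to 255, mostly CPA1. The part of these markers in the results was not tested.

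Most lysosome and autophagy genes differed by less than 1.5-fold between the groups, and the genes that passed the test moved both ways. A gene is called higher or lower here when the limma test gave a Benjamini-Hochberg adjusted p under 0.1 over all tested genes and the fold change was over 1.5. Of the 48 tested genes, 7 rose in senescent cells (14.6%, beside 11.6% of all tested genes) and 3 fell (6.25%, beside 11.8%). GAA, MAN2B1, FUCA1, ASAH1, SMPD1, PPT1 and GABARAPL1 rose, and GUSB, CTSC and MITF fell. A further 20 genes had an adjusted p under 0.1 with a smaller fold change, 13 of them with higher and 7 with lower levels in senescent cells, and 18 had a larger p. At any fold change, 41.7% of the 48 genes had an adjusted p under 0.1 and higher levels in senescent cells (23.2% of all tested genes). A further 20.8% of the 48 had one with lower levels (22.3%). The median log2 difference of the 48 genes, senescent minus non-senescent, was 0.18, beside 0.01 for all tested genes, and the differences ranged from -1.54 to 1.08.

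Within each batch taken alone, the groups were apart for 13 genes with higher levels in senescent cells (11.9% of all tested genes did this) and for 5 with lower levels (11.9%). The 10 called genes differed in the same direction in both batches, and MAN2B1 was the 1 whose groups overlapped. Scaling all libraries to the same total moved the whole comparison down, from a median of 0.01 to -0.09 over all tested genes, and the share of higher genes among all calls from 49.6% to 36.9%. Under that scaling 9 of the 10 genes were called. ASAH1, at 0.58, was the exception. The members together held 0.644% to 0.645% of reads in non-senescent and 0.607% to 0.620% in senescent libraries of batch A, against 0.503% to 0.529% and 0.547% to 0.561% in batch B. Their share was thus lower in senescent cells of batch A and higher in senescent cells of batch B.

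**Figure D1:**
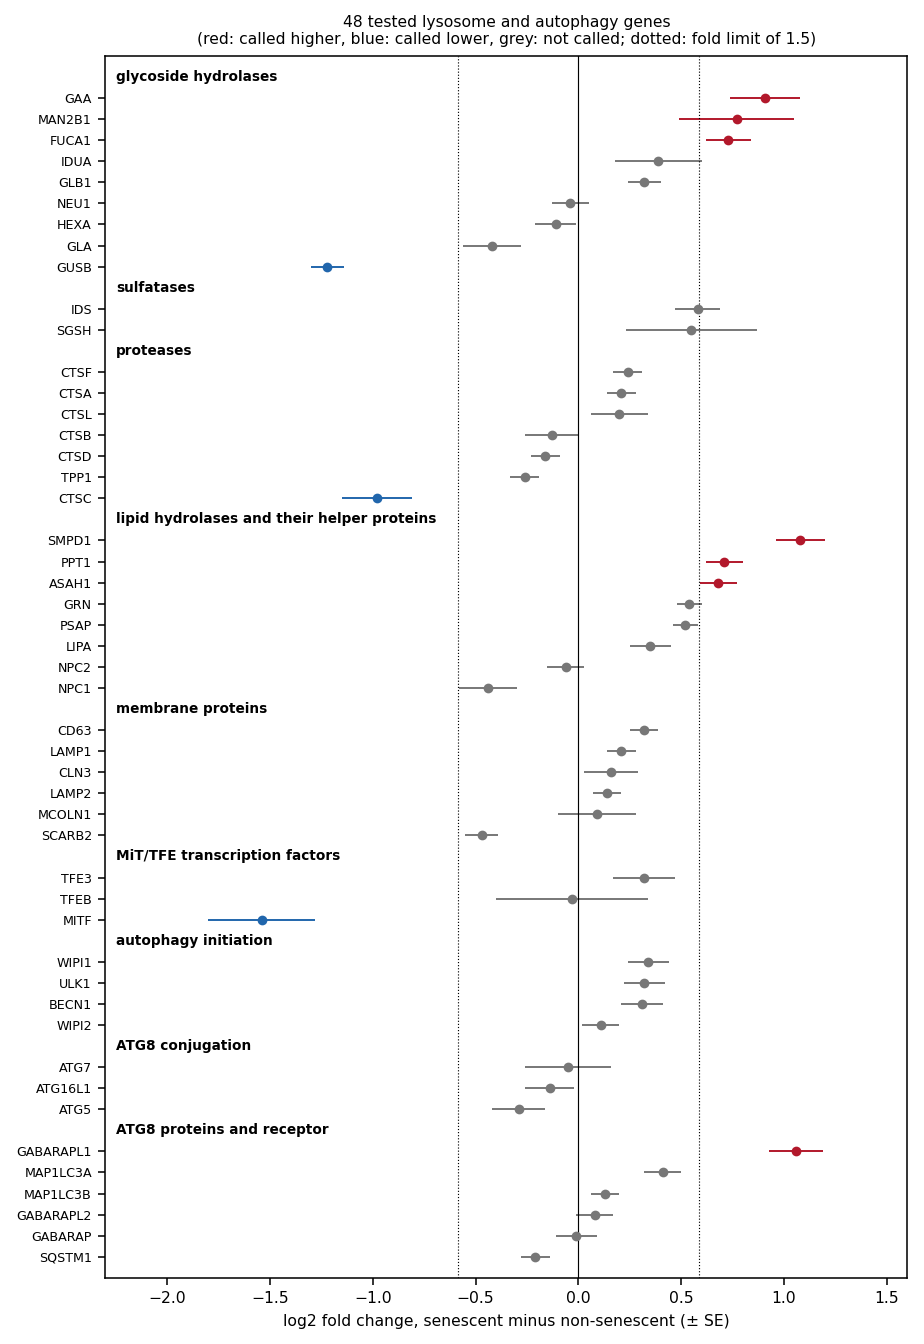
Log2 fold change, senescent minus non-senescent, of the 48 tested genes by role, with bars of 1 standard error from the limma fit over 12 samples. Dotted lines mark the fold limit of 1.5. Filled coloured points are the 7 called higher and the 3 called lower, and the other genes lie closer to 0.

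GLB1, at chr3:32996609-33097202 on the minus strand of GRCh38, was modestly higher in senescent cells and was not called. In batch A it measured 653 and 675 normalised reads in non-senescent samples and 753 and 722 in senescent samples. Batch B gave 393, 376, 398 and 427 in non-senescent and 511, 507, 599 and 498 in senescent samples. Every senescent value lay above every non-senescent value of its batch, while the non-senescent samples of batch A exceeded all senescent samples of batch B. The log2 difference was 0.32 ± 0.08 (SE; limma adjusted p = 0.00342), a 1.25-fold change below the limit of 1.5. Batch A gave 0.15 and batch B gave 0.40, a difference between batches that did not pass the interaction test (adjusted p = 0.439). Without the batch term the adjusted p of GLB1 was 0.319. Of its relatives, GLB1L differed by -0.43 (adjusted p = 0.127), GLB1L2 by -0.11 (0.686) and GLB1L3 by -0.15 (0.762). The message of the stained enzyme thus lay 1.25-fold higher, and none of its 3 paralogs passed the test.

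Among 9 glycoside hydrolases, which cut sugars from glycoproteins, glycolipids and glycogen, 3 rose (33.3%, beside 11.6% of all tested genes) and 1 fell (11.1%, beside 11.8%). GUSB, β-glucuronidase of glycosaminoglycan breakdown (chr7:65960684-65982215, minus strand), had 869 and 877 normalised reads in non-senescent cells of batch A and 401 and 353 in senescent cells. In batch B the non-senescent values were 663, 599, 682 and 678 and the senescent values 248, 320, 272 and 280. All 6 senescent values lay below all 6 non-senescent values. The log2 difference was -1.22 ± 0.08 (adjusted p = 2.24e-09), the call with the smallest p among the 48 genes, with -1.21 for batch A and -1.23 for batch B. GUSB has pseudogene copies that share sequence with it. GUSBP1, GUSBP2 and GUSBP3 held 382, 725 and 377 reads over the 12 libraries and differed by 0.16, 0.52 and -0.18. The limma adjusted p were 0.613, 0.0635 and 0.905, and none of them was called. GUSBP2, higher in senescent cells, thus missed only the fold limit. GUSBP5 held 47 reads and was not tested. How reads were divided among the copies is uncertain.

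GAA, the acid α-glucosidase that degrades glycogen (chr17:80101533-80119881), measured 86.2 and 76.3 normalised reads in non-senescent cells of batch A and 154 and 125 in senescent cells. In batch B it measured 31.6, 52.3, 33.6 and 53.4 against 65.4, 92.4, 95.0 and 81.0. The groups were apart within each batch, with a log2 difference of 0.91 ± 0.17 (adjusted p = 3.68e-04). FUCA1, the α-fucosidase, had 254 and 269 against 316 and 307 in batch A and 382, 469, 376 and 451 against 866, 814, 848 and 752 in batch B. It was higher by 0.73 ± 0.11 (adjusted p = 7.41e-05), and its rise of 0.97 in batch B was larger than the 0.25 in batch A (interaction 0.72, adjusted p = 0.0289). In batch A alone FUCA1 did not reach the fold limit, and without the batch term its adjusted p was 0.137.

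MAN2B1, the lysosomal α-mannosidase (chr19:12646511-12666742, minus strand), was at 151 to 314 normalised reads in batch A and at 2.92 to 15.7 in batch B. In batch A senescent cells had 314 and 296 against 151 and 171, and in batch B the groups overlapped, at 4.58 to 15.7 against 2.92 to 8.26. Its log2 difference was 0.77 ± 0.28 (adjusted p = 0.0413), and it was no longer called in batch B alone (adjusted p = 0.395), without the batch term (adjusted p = 0.812), without senescent sample B2 (0.59, adjusted p = 0.103) or with a pseudocount of 8 (0.54). Its 3′ end overlaps another annotated gene of the same strand that is not listed by name in the table.

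Of the other sugar-cutting enzymes, GLA, α-galactosidase A, was lower at -0.42 ± 0.14 (adjusted p = 0.0247), under the fold limit, and HEXA, a β-hexosaminidase subunit, differed by -0.11 (adjusted p = 0.389). NEU1, the lysosomal sialidase, had opposite signs in the batches. Non-senescent cells of batch A had 1005 and 1018 normalised reads and senescent cells 827 and 762. In batch B the values were 1022, 1070, 1175 and 1159 against 1085, 1179, 1264 and 1280. The differences were -0.35 and 0.12, and the interaction was 0.47 (adjusted p = 0.084). IDUA, the α-iduronidase of glycosaminoglycan breakdown, went the other way, with 18.9 and 16.7 against 49.4 and 35.0 in batch A and 70.8, 57.8, 58.5 and 89.5 against 66.7, 67.2, 61.8 and 77.2 in batch B. Senescent cells were higher by 1.18 in batch A and level with the controls in batch B (interaction -1.18, adjusted p = 0.0957).

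The sulfatases SGSH and IDS remove sulfate from heparan sulfate and related chains. IDS, iduronate 2-sulfatase (chrX:149476988-149521096, minus strand), measured 876 and 949 normalised reads in non-senescent cells of batch A and 971 and 987 in senescent cells. In batch B it measured 423, 408, 421 and 383 against 771, 699, 758 and 658. The groups were apart in each batch, by 0.10 and 0.82 in A and B, and the interaction of 0.71 (adjusted p = 0.00981) was the 1 among the members that passed under every alternative. Its overall difference of 0.58 ± 0.11 (adjusted p = 3.48e-04) was just below the fold limit, and IDS was called in batch B alone (0.82) and when any of the 4 batch A libraries was left out (0.62 to 0.65). SGSH, at 6.36 to 21.1 normalised reads, differed by 0.55 ± 0.32 (adjusted p = 0.19).

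Of the 7 tested among 9 lysosomal proteases, none rose (11.6% of all tested genes did) and 1 fell (14.3%, beside 11.8%). The fallen gene was CTSC, the dipeptidyl peptidase that activates granule serine proteases. CTSC (chr11:88265069-88359684, minus strand) had 65.6 and 76.3 normalised reads in non-senescent cells of batch A and 26.0 and 32.0 in senescent cells. Batch B gave 54.2, 57.8, 84.8 and 70.8 against 37.6, 33.6, 34.3 and 41.1. All senescent values were below all non-senescent values, and the log2 difference was -0.98 ± 0.17 (adjusted p = 1.93e-04). CTSF, a cysteine cathepsin, and CTSA, which protects NEU1 and GLB1 from degradation, were higher by 0.24 and 0.21, and TPP1, the tripeptidyl peptidase, and CTSD, the main aspartic protease, were lower at -0.26 and -0.16, all with adjusted p under 0.1 and under the fold limit. CTSB differed by -0.13 (adjusted p = 0.469). The median of the 7 tested proteases was -0.13.

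CTSA and CTSL responded differently in the batches. CTSA had 3166 and 2828 normalised reads against 2891 and 2855 in batch A, and 1147, 1104, 1042 and 1064 against 1297, 1419, 1434 and 1360 in batch B (interaction 0.40, adjusted p = 0.088). CTSL, a cysteine cathepsin, had 251 and 234 against 200 and 169 in batch A and 197, 224, 238 and 251 against 324, 318, 288 and 355 in batch B. Senescent cells were thus lower by 0.40 in batch A and higher by 0.50 in batch B (interaction 0.89, adjusted p = 0.022), and the pooled difference of 0.20 did not pass (adjusted p = 0.273). CTSH and CTSZ stayed under the filter. CTSH was at 0 to 7.95 normalised reads and CTSZ at 0 to 1.80, and 3 reads, the limit for a sample without reads, correspond to 1.35 to 4.52 normalised reads depending on the library. These floors cover counting error only.

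Lipid hydrolases and their helper proteins had the highest median of the roles with more than 2 tested genes, 0.53 over 8 genes. This role also holds GRN, PPT1, NPC1 and NPC2, so the median is not that of lipid-degrading enzymes alone. In it 3 genes were called higher (37.5%, beside 11.6% of all tested genes) and none lower (11.8% of all tested genes). SMPD1, the acid sphingomyelinase that makes ceramide (chr11:6390440-6394998), measured 170 and 164 normalised reads in non-senescent cells of batch A and 347 and 322 in senescent cells. Batch B gave 72.3, 48.2, 55.5 and 74.5 against 132, 140, 150 and 121. Senescent values were above non-senescent values in each batch, and the log2 difference was 1.08 ± 0.12 (adjusted p = 2.70e-06), close to 1.00 and 1.12 for the batches taken singly. ASAH1, the acid ceramidase that degrades ceramide, was at 458 to 599 normalised reads in non-senescent and 628 to 1083 in senescent cells, with no overlap and a difference of 0.68 ± 0.09 (adjusted p = 1.21e-05). It fell under the fold limit in batch A alone, at 0.38. PPT1, which removes palmitate from proteins, rose by 0.71 ± 0.09 (adjusted p = 9.94e-06) and was under the fold limit in batch B alone, at 0.58.

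PSAP, the precursor of the saposins that present sphingolipids to their enzymes, and GRN, the precursor of the granulins, were apart between the groups in both batches and stayed under the fold limit. PSAP had 2387 to 3727 normalised reads in non-senescent and 3674 to 5012 in senescent cells, a difference of 0.52 ± 0.06 (adjusted p = 2.34e-06). GRN had 3449 to 3962 and 5123 to 6082, a difference of 0.54 ± 0.06 (adjusted p = 9.62e-07). LIPA, the acid lipase that releases cholesterol from its esters, was higher by 0.35 ± 0.10 (adjusted p = 0.0123). NPC1, the membrane protein that exports that cholesterol, was lower at -0.44 ± 0.14 (adjusted p = 0.0189), and its soluble partner NPC2 differed by -0.06 (adjusted p = 0.624). The sphingolipid enzymes and cofactors SMPD1, ASAH1 and PSAP thus were all higher, and the cholesterol transporters NPC1 and NPC2 were not.

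**Figure D2:**
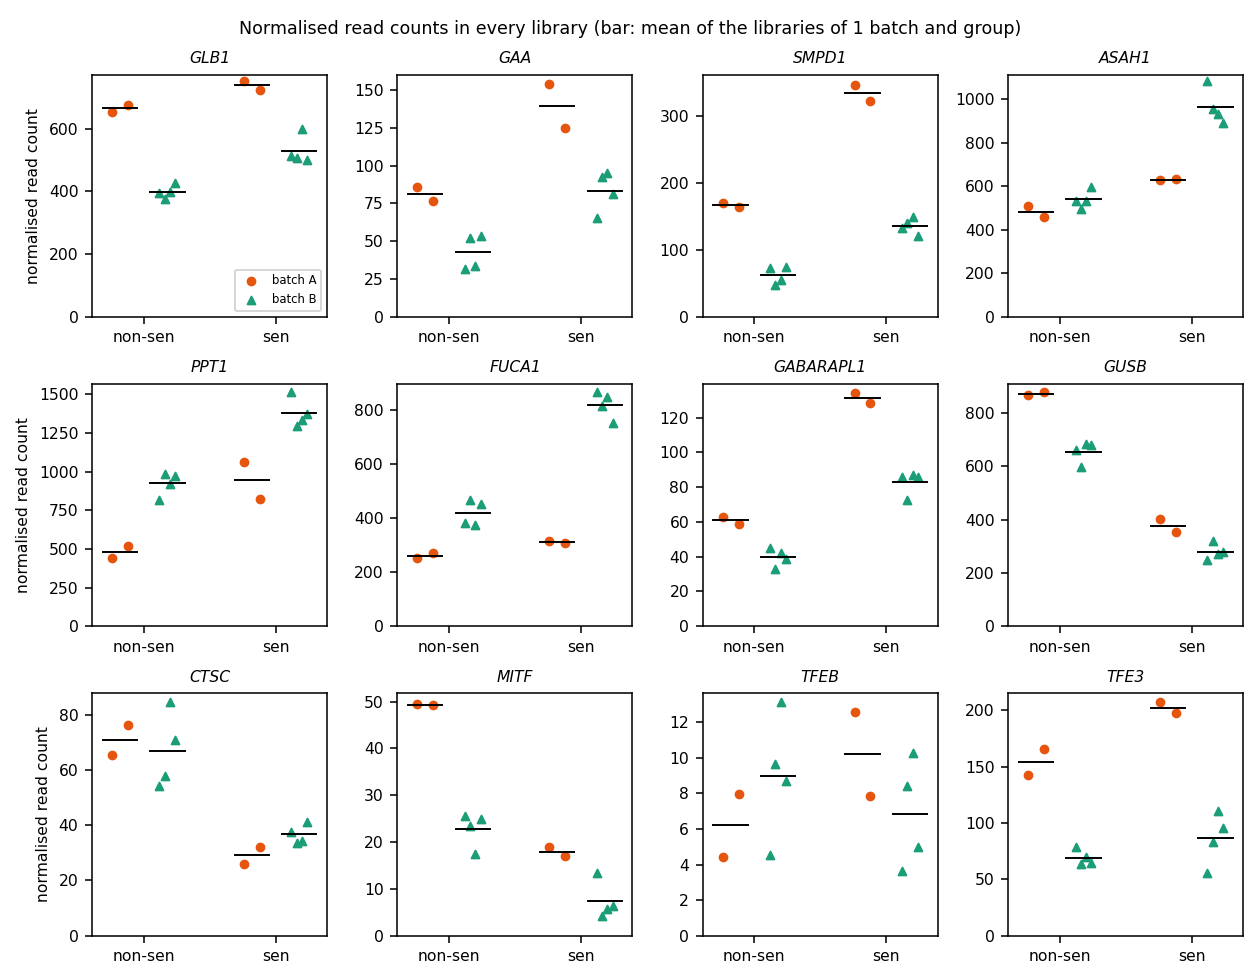
Normalised read counts of 12 of the genes in each of the 12 samples (vertical axes, each starting at 0), by group (horizontal axis, non-sen and sen) and batch (circles A, triangles B), with the mean of each batch and group as a bar. GUSB, CTSC and MITF lie lower in senescent samples, SMPD1, GAA and GABARAPL1 lie higher within each batch, and GLB1 shows a smaller difference of 1.25-fold.

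None of 6 lysosomal membrane proteins was called, beside 11.6% higher and 11.8% lower of all tested genes. CD63 was higher by 0.32 ± 0.07 (adjusted p = 0.00117) and LAMP1 by 0.21 ± 0.07 (adjusted p = 0.0286), and LAMP2, CLN3 and the calcium channel MCOLN1 differed by 0.14, 0.16 and 0.09 with adjusted p of 0.114, 0.369 and 0.753. SCARB2, the receptor that carries β-glucocerebrosidase to lysosomes, was lower in senescent cells, at -0.47 ± 0.08 (adjusted p = 1.15e-04). It had 3215 and 3367 normalised reads against 1872 and 1972 in batch A and 1664, 1835, 1707 and 1848 against 1398, 1433, 1354 and 1465 in batch B. The groups were apart in each batch, and the difference of -0.78 in batch A was larger in size than the -0.32 of batch B (interaction 0.46, adjusted p = 0.0406).

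The 3 MiT/TFE factors did not move together. MITF (chr3:69739456-69968336) had 49.5 and 49.3 normalised reads in non-senescent cells of batch A and 18.9 and 16.9 in senescent cells. In batch B it had 25.6, 23.4, 17.5 and 24.9 against 13.3, 4.20, 5.72 and 6.23. Senescent values lay below those of the controls in each batch, and the log2 difference was -1.54 ± 0.26 (adjusted p = 1.69e-04), the largest of the 48 genes in either direction. Its lowest senescent value rests on 4 reads. TFE3 (chrX:49028726-49043410, minus strand) had 143 and 165 against 207 and 198 in batch A and 78.3, 63.3, 70.1 and 64.6 against 55.7, 82.9, 111 and 95.9 in batch B, a difference of 0.32 ± 0.15 (adjusted p = 0.108).

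TFEB (chr6:41683978-41736259, minus strand) was barely detected, with 4.45 and 7.95 against 12.6 and 7.85 normalised reads in batch A and 4.52, 9.64, 13.2 and 8.70 against 3.63, 8.40, 10.3 and 4.98 in batch B. The groups overlapped, with a difference of -0.03 ± 0.37 (adjusted p = 0.967). Single libraries held as few as 3 TFEB reads, and at this standard error a small change was not detectable. Message levels do not show how much of these proteins is in the nucleus, the step by which TFEB and TFE3 are mainly controlled.

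Among 13 autophagy genes 1 rose (7.69%, beside 11.6% of all tested genes) and none fell (11.8% of all tested genes). Their median was 0.11, beside 0.21 for the 32 tested lysosomal genes and 0.01 for all tested genes. GABARAPL1, 1 of the ATG8 proteins that coat autophagosomes (chr12:10212458-10223128), had 62.8 and 58.8 normalised reads in non-senescent cells of batch A and 134 and 129 in senescent cells. In batch B it had 45.2, 33.0, 42.4 and 38.5 against 86.0, 72.4, 87.0 and 85.9. All 6 senescent values were above all 6 non-senescent values, with a log2 difference of 1.06 ± 0.13 (adjusted p = 6.89e-06) and nearly the same size in both batches, 1.10 and 1.05.

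The other ATG8 genes differed less. MAP1LC3A was higher by 0.41 ± 0.09 (adjusted p = 0.00115), and MAP1LC3B and GABARAPL2 differed by 0.13 and 0.08 with adjusted p of 0.178 and 0.521. GABARAP had 2763 and 2468 normalised reads against 3568 and 3491 in batch A and 6377, 6405, 4976 and 6505 against 5284, 5095, 4955 and 5124 in batch B. It was higher in senescent cells by 0.43 in batch A and lower by 0.24 in batch B (interaction -0.67, adjusted p = 0.0189). The receptor SQSTM1 (p62), which ties ubiquitinated cargo to ATG8 proteins and is itself degraded by autophagy, was lower at -0.21 ± 0.07 (adjusted p = 0.0306). Message levels of these genes do not measure autophagic flux.

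Of 4 initiation genes, ULK1, BECN1 and WIPI1 were higher by 0.32, 0.31 and 0.34 with adjusted p of 0.0139, 0.0207 and 0.0102, all under the fold limit, and WIPI2 differed by 0.11 (adjusted p = 0.354). Of the 3 conjugation genes, ATG5 was lower at -0.29 ± 0.13 (adjusted p = 0.0957), while ATG7 at -0.05 and ATG16L1 at -0.14 did not pass. The highest WIPI1 value in non-senescent cells was 259 normalised reads and the lowest in senescent cells 264, so its groups were apart by a small margin.

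The response differed between the batches in 8 of the 48 genes (4.21% of all tested genes), which are NEU1, FUCA1, CTSA, CTSL, SCARB2, IDUA, IDS and GABARAP. Rounded to 2 decimals, signs were opposite for 4 genes, NEU1, CTSA (-0.06 in batch A), CTSL and GABARAP, with IDUA level in batch B. The count rests on the 2 samples per group of batch A, and it was 3 or fewer when any 1 of these 4 libraries was left out (3 without non-senescent A1, 2 without non-senescent A2, 2 without senescent A1 and 1 without senescent A2), when the lone sample left is assumed to vary like the others. It was 5 without senescent B2 and 5 without senescent B3.

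**Figure D3:**
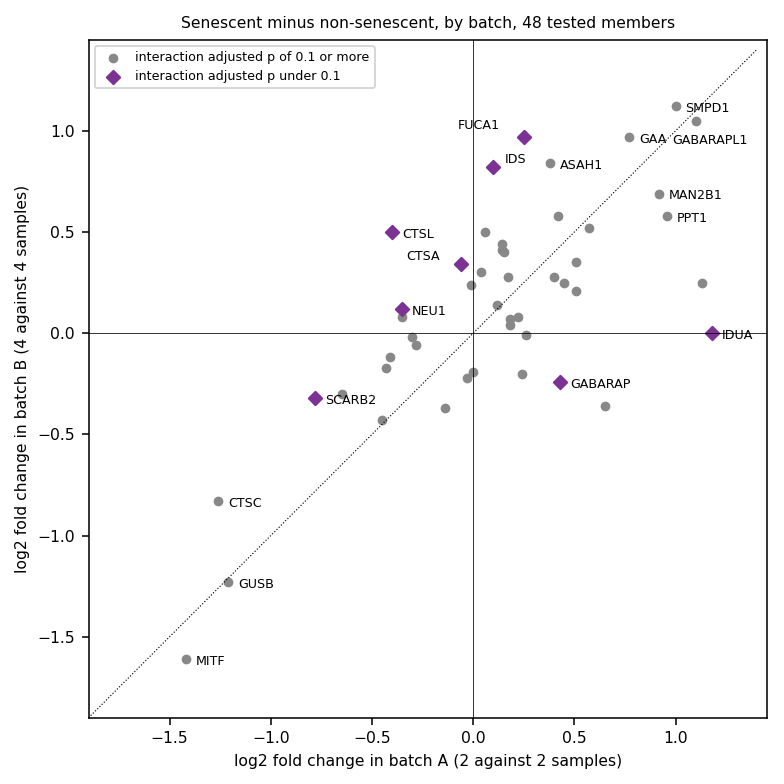
Log2 fold change of the 48 tested genes, senescent minus non-senescent, in batch A (horizontal axis, 2 samples per group) and in batch B (vertical axis, 4 per group). The dotted line marks equal changes, and the 8 genes with an adjusted interaction p under 0.1 are marked. GUSB, SMPD1 and GABARAPL1 lie close to the line.

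Beyond the 50 genes, 177 further lysosome and autophagy genes in 9 lists were counted by the same test. Of 171 tested, 29 rose (17.0%, beside 11.6% of all tested genes) and 4 fell (2.34%, beside 11.8%), with a median log2 difference of 0.13. With all libraries scaled to the same total, 16 were higher and 9 lower, and 20 of the 33 calls were kept. Under that scaling 1225 of all 13845 tested genes were higher and 2092 lower. The other acid hydrolases and activators held 8 risen (28.6%) and 1 fallen (3.57%) of 28, with a median of 0.27. GALC, which cleaves galactosylceramide, rose by 1.51 ± 0.09 (adjusted p = 1.14e-09), and CTSV, a cathepsin, fell by 2.44 on the log2 scale (SE 0.42, adjusted p = 2.00e-04). CTSV measured 22.8 ± 6.61 normalised reads in non-senescent and 4.79 ± 4.19 in senescent cells (mean ± SD, n = 6 each).

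Of 20 tested V-ATPase subunits, the proton pump of the lysosome, 2 rose (10.0%, beside 11.6% of all tested genes) and none fell (11.8% of all tested genes). ATP6V0E1 rose most, by 0.64 ± 0.07 (adjusted p = 1.55e-06). Same-total scaling left no call in this list. The other call, ATP6V1B1 (0.59), was lost in 11 of 26 alternatives, among them edgeR, DESeq2 and leaving out non-senescent B2, B3 or B4 or senescent B2 or B4 (0.50 to 0.53). Mannose 6-phosphate sorting, which takes hydrolases to lysosomes, had 1 rise, of the receptor IGF2R (0.59), and 1 fall, of VPS26A (-0.72), among 17 (5.88% each). IGF2R lay at the fold limit and was lost in 12 of 26 alternatives, among them every other scaling, edgeR and leaving out non-senescent B1, B2 or B4 or senescent B2 or B4 (0.46 to 0.58), and VPS26A was lost without the batch term and without senescent B4 (-0.58). Of 22 transporters and other membrane proteins 6 rose (27.3%), led by the amino acid exporter SLC36A1 (1.05 ± 0.16), and none fell. With same-total scaling 3 of them were higher and 1 lower. In mTORC1 and lysosomal nutrient sensing, 4 of 24 rose (16.7%), 3 of which are the sestrins. SESN1, a p53 target that holds back mTORC1, rose by 1.63 ± 0.21 (adjusted p = 7.33e-06). None in that list fell, and with same-total scaling 3 were higher and 2 lower.

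Over all tested genes, 11.6% were called higher and 11.8% lower. In other autophagosome formation genes, ULK2 was the 1 call among 25 (4.0%), at -0.63. It was lost in 8 of 26 alternatives, among them leaving out non-senescent B1, B2 or B4 or senescent A1 or B3 (-0.58 to -0.44). Of 16 other autophagy receptors 6 rose (37.5%) and none fell, with a median of 0.35. The receptor of endoplasmic reticulum CCPG1 rose most, by 1.15 ± 0.12 (adjusted p = 8.08e-07). The count was 3 with same-total scaling and 4 without the batch term, in batch A alone, with a pseudocount of 8 or without senescent B4. Among 16 fusion genes, 2 rose (12.5%) and 1 fell (6.25%), near or under the shares over all tested genes. VPS39, a subunit of the HOPS tethering complex, rose by 0.78 and PLEKHM1 by 0.62. The SNARE protein SNAP29 fell by 0.62 on the log2 scale. VPS39 was called in every alternative. PLEKHM1 was lost in 7 of 26, including without non-senescent B2 (0.57) or senescent B1 (0.55), and SNAP29 in 6, including without non-senescent B1 or B3 or senescent B1 or B2 (-0.58 to -0.52).

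**Figure D4:**
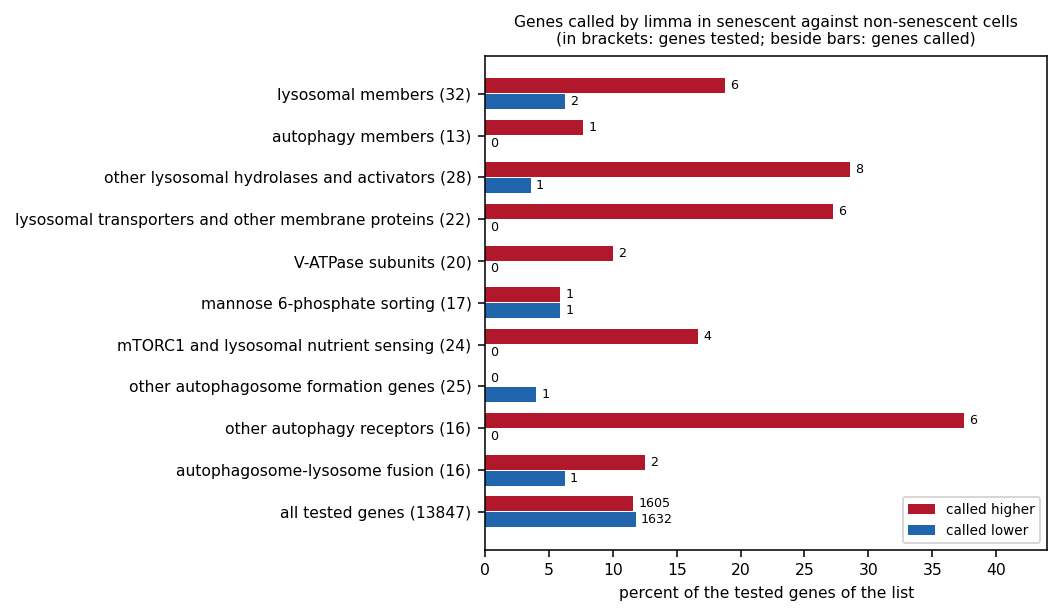
Genes called higher (red) and lower (blue) among the lysosomal and the autophagy members and in 8 further lists, as a percentage of the genes tested in each (horizontal axis), beside the share over all 13847 tested genes (11.6% higher, 11.8% lower). The longest red bar is that of the other autophagy receptors, 6 of 16 genes (3 with same-total scaling), and lists this short move by a large share with each gene.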

How the data were processed

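RNA of 12 samples was read by CEL-seq2, a 3′ end method, and the grouping, the letter read as batch and the replicate number came from the labels. Per the methods and the submitters' processing notes, the authors used Cutadapt for trimming, Salmon 0.13.1 with GRCh38 for quantification, and DESeq2 with a batch correction for normalising and testing. The transcript annotation and the use of molecular identifiers are not given in the sources used here. Deposited per gene is a signal: the reads of a sample over its single size factor. All values were whole multiples of 1 read (100% of 196021 values within 0.01 read), so whole reads were recovered. The deposited log2 fold changes and their errors, test statistic scores and p-values of the authors' own comparison were not used.

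The members, the further lists and the rules were chosen with earlier results of these data known. limma 3.58.1 in R 4.3.3 was fitted on log2(normalised read count + 1) with batch and group and the variance trend, for the 13847 genes with a mean of at least 5. This scale understates the change of low genes. Calls needed a fold change over 1.5 and a p, adjusted over all tested genes by Benjamini-Hochberg, under 0.1. The interaction of batch and group was tested at the same p without a fold limit. edgeR 4.0.16 (quasi-likelihood) and DESeq2 1.42.0 on the recovered reads were alternatives, with other pseudocounts, filters and scalings, no batch term, a replicate block, single batches, no variance trend and 1 library left out. The procedure was tested on simulated data.

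Values in every sample are given for GLB1, the MiT/TFE factors, members called with an absolute log2 change of at least 1, members of the interaction count and the leading call of each role. GAA, MAN2B1 and ranges for other members were added after their values were seen. In the further lists the largest called rise and fall are named, and PLEKHM1 was added afterwards. Positions are GENCODE v44 on GRCh38, and promoters RefSeq on the same build. Whether counting used strand is not given in the sources used here. GLA, CTSA, NPC1, SGSH, SQSTM1, BECN1, ATG7 and WIPI1 overlap a gene of the other strand at their 3′ ends. HEXA, SCARB2 and GABARAPL2 overlap a lncRNA gene of that strand. MCOLN1 overlaps PNPLA6 on its own strand. HEXA, MAN2B1, CTSD, IDS, CLN3, MCOLN1 and GABARAP overlap another annotated protein-coding gene of their own strand. TPP1 overlaps a lncRNA gene and NPC2 a miRNA gene of their own strand. GUSB and MAP1LC3B have near copies. The levels of all these genes are uncertain in these respects. Protein sequences were not used here.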

Additional observations from a re-analysis of the deposited data

Results flagged for a closer look

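In batch B, where each group has 4 samples, 8 of 96 groups checked (8.33%) had 1 sample far from the other 3 by Dixon's test, which chance gives in about 1 in 20 groups. Over all 6 samples of a group, 0 of 96 did. GLB1 was 598.6 normalised reads in senescent B3, against 498.2 to 511.4 in the others. CLN3 was 393.0 in non-senescent B1 (others 293.7 to 308.1) and SQSTM1 was 450.2 in senescent B2 (others 424.6 to 429.0). MAP1LC3B was 1078 in non-senescent B2 (others 875.3 to 902.0). GABARAP was 4976 in non-senescent B3 (others 6377 to 6505). GABARAPL1 was 72.42 in senescent B2 (others 85.94 to 86.99), ATG7 was 79.72 in senescent B4 (others 35.48 to 40.93) and WIPI2 was 526.0 in non-senescent B3 (others 391.0 to 412.5).

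For 8 genes the response differed between the batches by limma's interaction test. The log2 response of batch B less that of batch A was 0.47 for NEU1, 0.72 for FUCA1, 0.40 for CTSA, 0.89 for CTSL, 0.46 for SCARB2, -1.18 for IDUA, 0.71 for IDS and -0.67 for GABARAP. Of 21 alternatives, IDS passed in 21, CTSL in 19, FUCA1 and GABARAP in 17, SCARB2 in 16, IDUA in 9, and CTSA and NEU1 in 7. The batches also differ in depth, and its part was not tested.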

How the results depend on the processing

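GAA, GUSB, CTSC, SMPD1, MITF and GABARAPL1 were called under all 14 alternatives and with each of the 12 libraries left out. The number of members called ranged from 8 to 12, and edgeR and DESeq2 on the recovered reads each called the same 10 genes, with 1561 genes higher and 1677 lower in all by edgeR. In batch A alone 5 members were lower. The members differing between batches numbered 5 without the filter and 3 without the variance trend, and 1 to 8 with 1 library left out, against 8 in all. The further pathway genes called numbered 33, with 21 without a batch term. With same-total scaling they numbered 25 (16 higher, 9 lower), beside 1225 higher and 2092 lower of all 13845 tested genes. The promoters holding TCACGTGA stayed 5 of 43 from canonical starts, an alternative chosen after seeing the data. With the replicate block in place of batch 10 members and 33 further genes were called. The replicate numbers do not pair the samples, since samples of the same number did not deviate together (correlations -0.0508 to 0.0164, and 1 of 6 numbers was the best match of its own), so the block carries no design information. None of the 10 called members changed sign under any alternative. Rounded to 2 decimals, 9 of the 48 tested members had opposite signs in the 2 batches taken alone. Where a call was lost, the cause was not tested. Low counts limit TFEB, SGSH, MITF and MAN2B1 in batch B, and CTSV in senescent cells.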
